A study of Mus musculus with 12 samples.

Results

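The Hox genes are the 39 genes of the 4 mouse clusters Hoxa, Hoxb, Hoxc and Hoxd, and every gene of the deposited tables with such a symbol was taken, 39 of 37991 genes. Their levels were read in 12 RNA-seq libraries of adult spinal cord tissue, 4 in each of 3 groups. In the SCI Tam group, mice received 2 mg of tamoxifen on each of 5 days and, after 7 clearing days, a dorsal hemisection of the cord at high thoracic level, and the injury site was taken 14 days later. The SCI Veh group had the same surgery and timing after injections of the solvent alone. The Uninjured group had solvent injections by its labels and no surgery. All 12 mice were over 8 weeks old, on a C57bl/6J background, and were of 1 genotype, which joins Glast-CreERT2 with R26R-YFP and with the Rasless alleles. Tamoxifen switches on the Cre enzyme of such animals in cells that use the promoter of Glast (Slc1a3); the study used it to reach type A pericytes, and astroglia can use it too. There recombined cells carry a YFP mark and are meant to lose the ability to divide for want of Ras function. The Rasless alleles are thus present in the control groups too. Each library came from a whole piece of tissue, so fewer cells of a type and less RNA per cell cannot be told apart. The segment from which the Uninjured pieces were cut is not given in the sources used here, so segment level and injury cannot be told apart in any comparison with that group.

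Hox proteins are homeodomain transcription factors that give cells a position along the head-to-tail axis. Genes of the same paralogue number in different clusters descend from 1 ancestral gene. Low-numbered paralogues are expressed from the hindbrain backwards and high-numbered ones only towards the tail, and neurons of the cord keep part of this code into adult life. In the embryonic mouse and chick cord, Hoxc6 marks motor columns at forelimb level, Hoxc9 those of the thorax, and Hox10 genes those at hindlimb level.

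Hox paralogues are close in sequence where the homeodomain touches DNA, which matters for how reads can be assigned to single members. To show this, the 30 coding bases of the start of the recognition helix are given for 7 members of paralogue numbers 8 to 10, read from GENCODE M21 transcripts (GRCm38) of the sense strand, with capitals at bases that differ from the commonest base of the 7.
Hoxb8: aaaatctggttCcagaatcggagAatgaaG
Hoxc8: aaGatTtggttCcagaatcgAaggatgaaG
Hoxd8: aaaatctggttCcagaaCAggagAatgaaa
Hoxb9: aaaatctggtttcagaaCcggCggatgaaa
Hoxc9: aaaatctggtttcagaaCcggaggatgaaG
Hoxa10: aaaatctggtttcagaatcgCaggatgaaa
Hoxc10: aaaatctggtttcaAaatcgCagAatgaaa
The stretches were found by a search for 10 amino acids (KIWFQNRRMK, or A in place of M), which 32 members matched. That the 7 encode the same amino acids was thus set by the search. No pair has the same 30 bases, and 10 of the 30 positions vary. Over whole transcripts the members were easier to separate. Of the 38 members with transcripts in that annotation (the identifier deposited for Hoxd4 had none), 3 shared more than 10 percent of their 31-base words with another gene on the same strand. These were Hoxd3 (61.1 percent, with Hoxd4 and the predicted gene Gm28230), Hoxa2 (13.7 percent, with Gm28308) and Hoxd11 (10.5 percent, with Gm28309). Another 6 members shared more than 10 percent with a transcript of the opposite strand, Hoxb3 (52.6 percent) and Hoxb2 (26.5 percent) with Hoxb3os among them. The strand setting of the counting is not given in the sources used here, so the values of Hoxd3, Hoxd4, Hoxa2, Hoxa3, Hoxa4, Hoxa7, Hoxb2 and Hoxb3 may hold reads of those neighbours.

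Promoters of 3 members with different behaviour in the results are shown next. Hoxb8 had the highest level and was lower in lesions than in Uninjured cords. Hoxa9 was lower in lesions too and high in 1 Uninjured library, and Hoxa2 was higher in lesions. The 250 bases before each start come from RefSeq (GRCm38.p6) and run 5′ to 3′ on the gene's own strand. Capitals mark matches on either strand to TGATNNAT, a motif of Hox proteins bound with a Pbx partner, TTTATNG, a motif of high-numbered Hox proteins, and TGACAG, a motif of Meis-type partners.
Hoxb8, chr11:96281655-96281904, plus strand: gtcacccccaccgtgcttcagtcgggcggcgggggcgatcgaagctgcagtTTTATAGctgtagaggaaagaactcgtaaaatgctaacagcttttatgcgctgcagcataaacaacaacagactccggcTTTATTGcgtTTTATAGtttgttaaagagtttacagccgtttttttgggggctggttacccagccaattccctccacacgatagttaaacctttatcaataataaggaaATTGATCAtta
Hoxa9, chr6:52227371-52227620, minus strand: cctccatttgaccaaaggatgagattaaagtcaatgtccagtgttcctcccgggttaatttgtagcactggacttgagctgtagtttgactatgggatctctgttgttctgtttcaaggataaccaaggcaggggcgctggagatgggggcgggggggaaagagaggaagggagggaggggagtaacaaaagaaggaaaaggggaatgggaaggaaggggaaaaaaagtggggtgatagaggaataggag
Hoxa2, chr6:52164832-52165081, minus strand: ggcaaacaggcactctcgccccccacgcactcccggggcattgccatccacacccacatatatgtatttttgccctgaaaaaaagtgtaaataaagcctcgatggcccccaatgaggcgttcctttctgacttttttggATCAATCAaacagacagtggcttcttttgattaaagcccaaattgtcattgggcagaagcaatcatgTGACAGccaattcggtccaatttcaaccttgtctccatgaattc
The Hoxb8 window held 3 matches to TTTATNG and 1 to TGATNNAT, the Hoxa2 window 1 match to TGATNNAT and 1 to TGACAG, and the Hoxa9 window had none of these letters. Of 24 Hox promoters in the table, which belong to 22 members, 4 held TGATNNAT (16.7 percent, against 7.68 percent of all 32851 promoters). TTTATNG stood in 2 of the 24 (8.33 percent, against 9.81 percent of all), and TGACAG in 2 as well (8.33 percent, against 15.9 percent of all). No motif overlapped another in the windows shown. The Hox windows held a median of 12.5 CG dinucleotides (a C followed by a G), from 2 to 35, against 6 over all promoters.

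Several features of the libraries stand before the results. Libraries are named by mouse number, and values are always given in the order 452, 513, 549, 564 for SCI Tam, 402, 428, 429, 457 for SCI Veh and 376, 377, 385, 467 for Uninjured. Total counts ran from 7967970 to 12581324, so 3 counts, the limit that a count of 0 allows, came to 0.235 to 0.370 CPM (counts scaled to library size). Sample names were 106 to 108 for 513, 549 and 564 and 20 or lower for the other 9. By Xist and Y-linked transcripts 402, 428, 457 and 467 came from males. A score of 13 skeletal muscle genes was above 2 in 402, 429 and 457 and in 377 and 385. Sensory ganglion genes summed to 29.7 CPM in 429 and to at most 5.50 CPM in any other library. The Uninjured library 467 differed from the other Uninjured cords in several Hox genes and is described below. Results that rest on it are given with and without it. Of 12 brain markers, Otx1, Otx2 and Six3 had no count in any library, and the 12 summed to 7.89 to 10.2 CPM in SCI Tam lesions, 5.78 to 12.1 in SCI Veh lesions and 12.4 to 14.8 in Uninjured cords.

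Across the libraries, the mean level of the leading member of each paralogue number rose up to number 8 and was lower at 9 and 10 (FPKM, fragments scaled for transcript length and for library depth, as deposited; FPKM is the scale used to compare genes with each other). Hoxb8, which in the mouse is also known for its role in grooming behaviour, had the highest mean over all libraries. It had 74.3, 57.6, 48.7 and 78.3 FPKM in SCI Tam lesions, 55.6, 59.6, 35.4 and 59.5 in SCI Veh lesions and 122, 102, 104 and 97.3 in Uninjured cords. Hoxc8, expressed in motor neurons that serve the forelimb, was the only other member to reach 50 FPKM, with 54.8, 62.8, 61.7 and 67.7 FPKM in SCI Tam lesions, 52.1, 55.6, 41.96 and 49.4 in SCI Veh lesions and 72.2, 70.8, 68.6 and 36.4 in Uninjured cords. Hoxb8 was above Hoxc8 in all Uninjured cords, and the 2 genes lay close together in both groups of lesions, where 513, 549 and 429 had more Hoxc8.

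Paralogues 6 to 8 together held 67.4 to 69.5 percent of the summed Hox FPKM in SCI Tam lesions, 65.3 to 66.6 percent in SCI Veh lesions and 61.6 to 69.3 percent in Uninjured cords. Within this block Hoxa7 (mean of 35.7 FPKM over 12 libraries) and Hoxb6 (25.1 FPKM) led their numbers. The leading members of the lower numbers were Hoxa5 (17.8 FPKM), which in the mouse is needed in phrenic motor neurons and in the lung, Hoxc4 (9.66 FPKM), Hoxb3 (8.44 FPKM), Hoxa2 (2.27 FPKM) and Hoxd1 (0.962 FPKM). Hoxb1, which marks a single segment of the embryonic hindbrain, had 0 to 4 counts in a library. Above number 8, Hoxb9 led with 23.3 FPKM, while Hoxc10 was at 1.07 FPKM and most of that came from Uninjured cords.

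Members of the hindmost numbers were all but absent. Hoxd10, Hoxa11, Hoxc11, Hoxd11, Hoxc12, Hoxd12, Hoxa13 and Hoxc13 had no count in any of the 12 libraries, which allows up to 0.0238 CPM over their 126022711 counts. Hoxb13 had 1 count in 429, and Hoxd13 had 1 count in each of 429, 457 and 467. These genes act in the embryonic limb, kidney, tail and genital region. The limit covers counting error only.

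**Figure D1:**
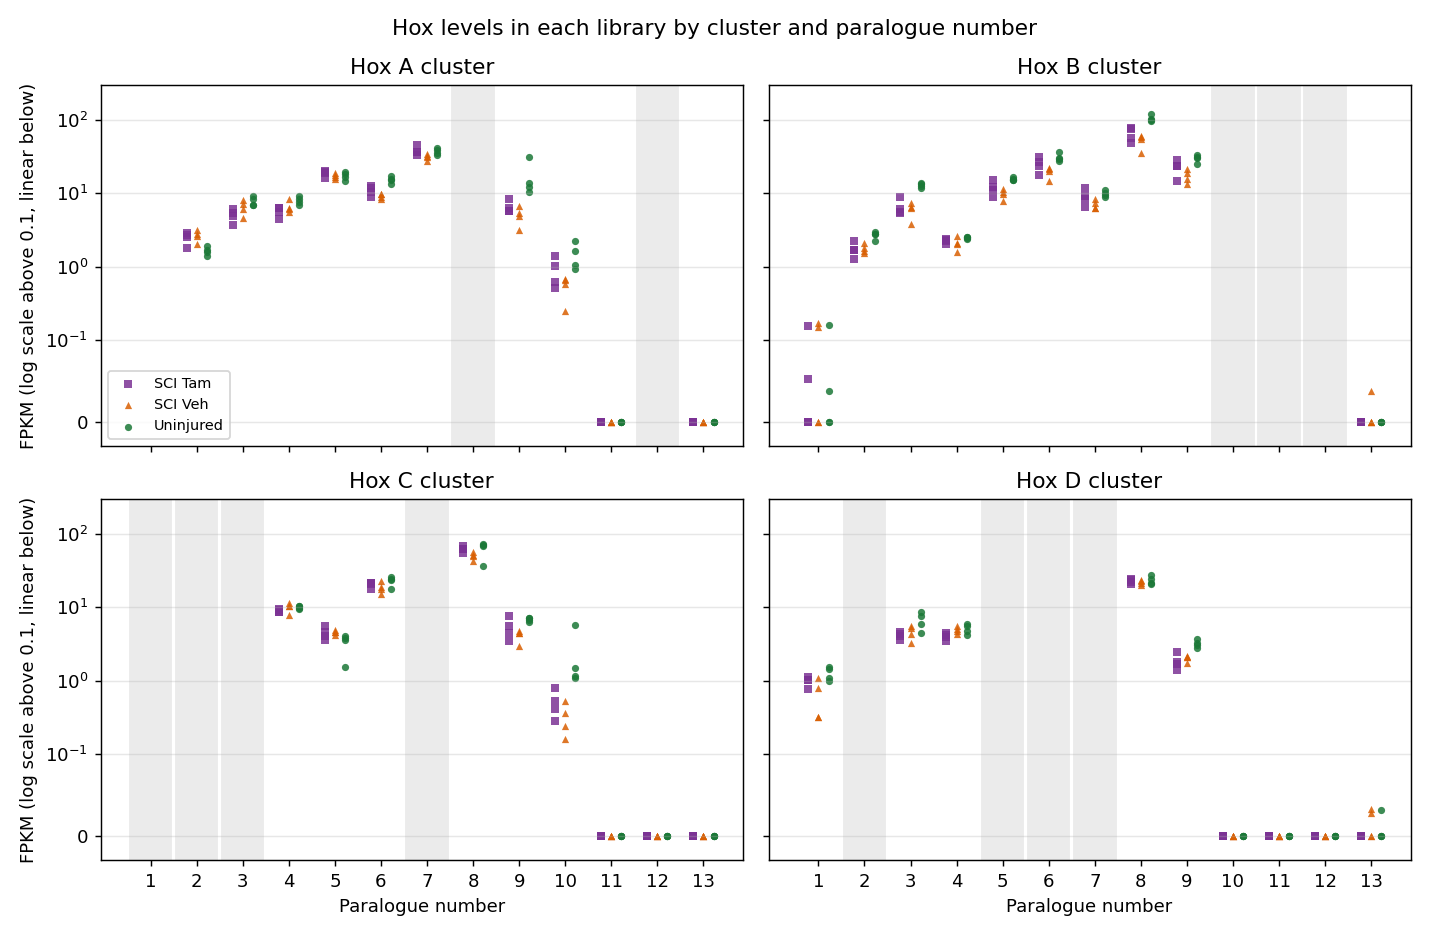
FPKM of 38 Hox genes (y axis, logarithmic above 0.1 and linear below) by paralogue number (x axis), 1 panel per cluster and 1 point per library, with purple squares for SCI Tam, orange triangles for SCI Veh and green circles for Uninjured; grey bands mark numbers that the cluster lacks. Levels peak at number 8 in the Hoxb, Hoxc and Hoxd clusters and are at or near 0 from number 11 on, in all 3 groups.

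As a single number for the profile, the paralogue number was averaged in each library with FPKM as weights. This mean was 6.84 ± 0.071 in SCI Tam lesions, 6.70 ± 0.038 in SCI Veh lesions and 6.90 ± 0.039 in Uninjured cords (SD, n = 4 each), and 6.89 in Uninjured cords without 467. It is given as a description with no test. All libraries fell between 6.65 and 6.94, so the groups differed by 0.208 of 1 paralogue number at most. The 4 SCI Veh lesions lay below all other libraries, while SCI Tam lesions, from 6.77 to 6.93, overlapped the Uninjured cords, from 6.85 to 6.94. With log2(FPKM + 1) as weights that separation was lost: SCI Tam library 549, at 6.017, lay below SCI Veh libraries 402 and 429, at 6.021 and 6.035.

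**Figure D2:**
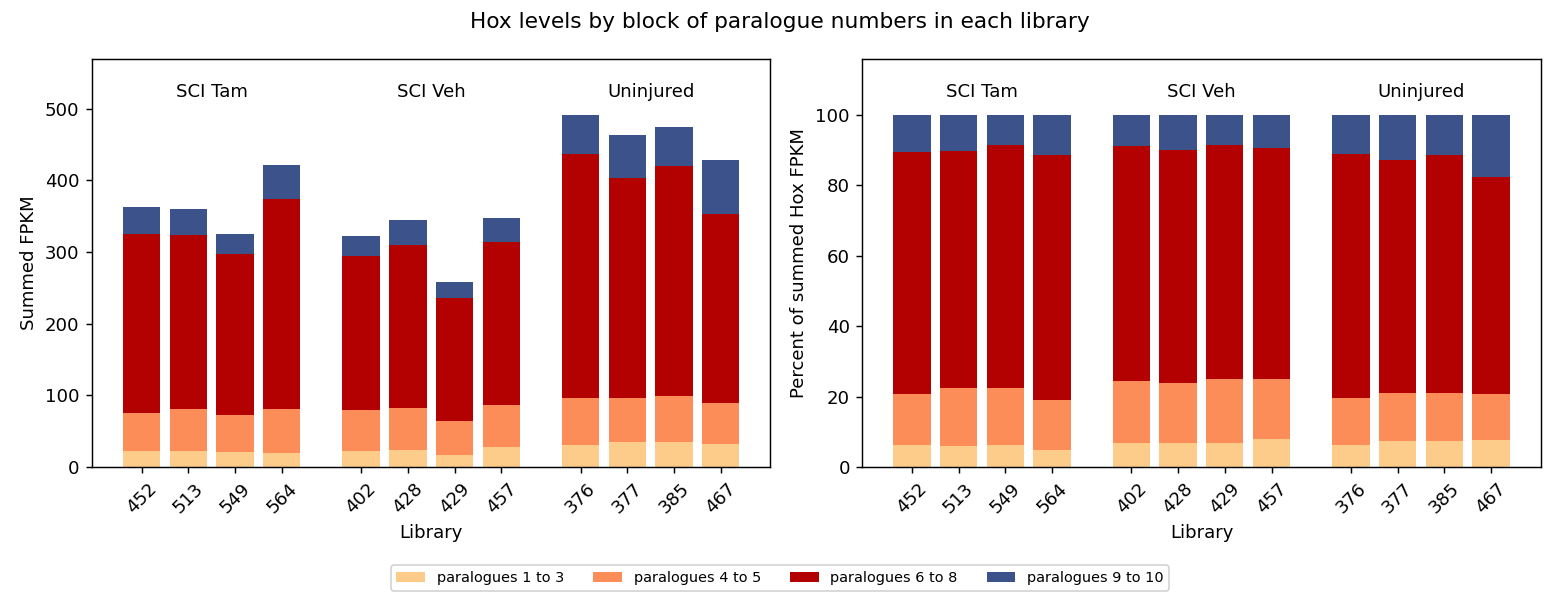
Summed FPKM of Hox genes (left, y axis) and percent of the summed Hox FPKM (right, y axis) in each library (x axis, by mouse number, grouped as SCI Tam, SCI Veh and Uninjured), stacked by block of paralogue numbers. The sum is 325 to 421 in SCI Tam, 259 to 347 in SCI Veh and 428 to 491 in Uninjured, and paralogues 9 to 10 take 17.5 percent in library 467, against at most 12.9 percent in the other 3 Uninjured libraries.

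In library 467, 6 of the 28 tested members lay more than 0.5 log2 from the mean of the other 3 Uninjured cords, against 1 to 4 members in each of 376, 377 and 385 by the same measure. More members did so in 2 lesion libraries, each against its own group: 9 in SCI Veh library 429 and 9 in SCI Tam library 549. Hoxc10 had 9.91 CPM in 467, against 2.14 to 2.29 CPM in 376, 377 and 385, 4.49 times their mean. Hoxa9 had 38.4 CPM, against 12.2 to 17.1 CPM, and Hoxa10 had 3.68 CPM, against 1.75 to 2.48 CPM. Hoxc8 had 96.9 CPM, against 182 to 190.4 CPM, Hoxc5 had 3.86 CPM, against 7.91 to 9.39 CPM, and Hoxc6 had 27.3 CPM, against 40.2 to 44.3 CPM. Other members of numbers 6 to 9 deviated less from the mean of the other 3, Hoxb9, Hoxc9 and Hoxd9 by -0.30, 0.21 and -0.09 log2 and Hoxa6, Hoxb6, Hoxa7, Hoxb7, Hoxb8 and Hoxd8 by -0.11 to 0.16. Of these, Hoxc9 still lay above the range of the other 3, with 22.3 CPM against 18.2 to 20.5 CPM. Hoxb9, with 76.5 CPM against 91.3 to 98.7 CPM, and Hoxa7, with 55.6 CPM against 55.9 to 63.5 CPM, lay below it. The ratio of Hoxa9 to Hoxc8 in FPKM was 0.853 in 467, against 0.144 to 0.198 in the other Uninjured cords, 0.0920 to 0.124 in SCI Tam lesions and 0.0746 to 0.137 in SCI Veh lesions. Library 467 was also the only male of its group and had the lowest sums of fibroblast (178 CPM, against 377 to 572), meningeal (50.1 CPM, against 123 to 158) and Schwann cell genes (281 CPM, against 462 to 692); their part in the Hox values was not tested.

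**Figure D3:**
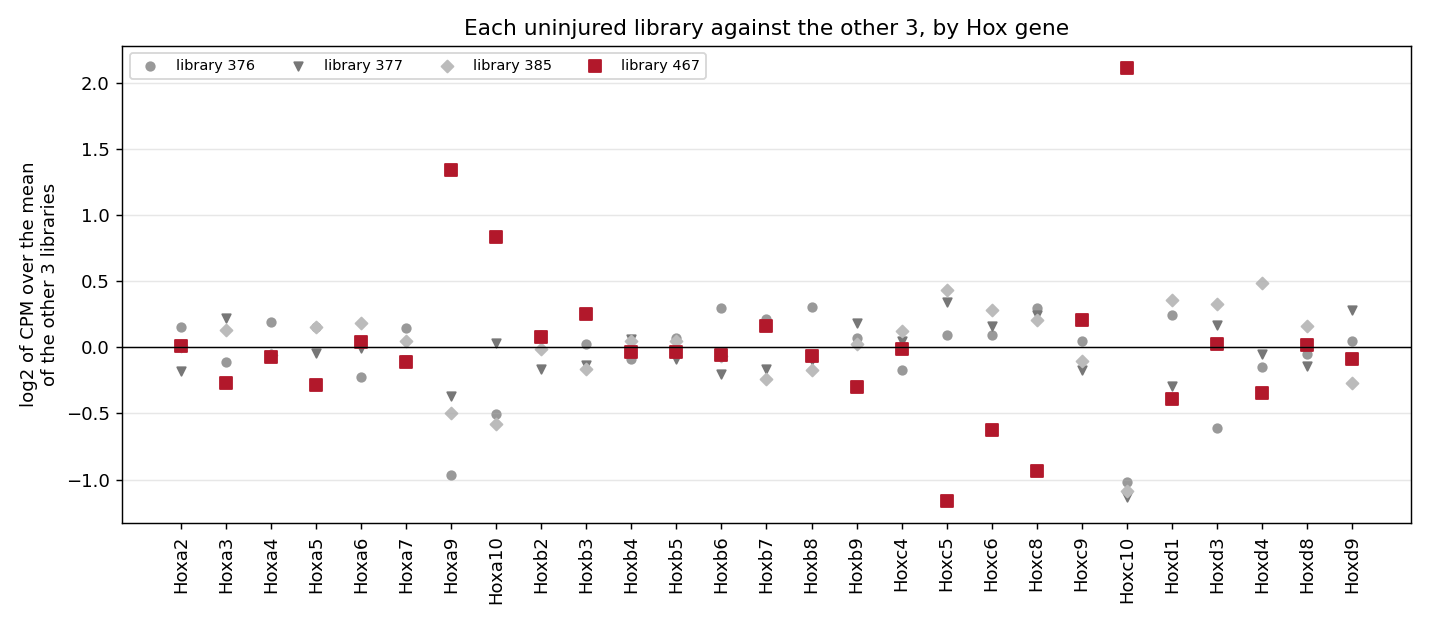
For each of 27 Hox genes (x axis, by cluster and number), the log2 of the CPM of 1 Uninjured library over the mean of the other 3 (y axis); red squares are library 467, grey symbols are 376, 377 and 385. Library 467 lies at 2.12 for Hoxc10 and 1.34 for Hoxa9, and at -1.16 for Hoxc5 and -0.94 for Hoxc8.

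Lesions of vehicle mice had lower levels of many Hox genes than uninjured cord. Of the 28 members that passed the filter on low counts, 15 were lower in SCI Veh lesions than in Uninjured cords, 2 were higher and 11 were not called (edgeR quasi-likelihood test, Benjamini-Hochberg adjusted p below 0.05 over 16473 genes). The fall took in 3 of the 7 tested members of numbers 1 to 3 and 1 of 7 of numbers 4 and 5. It took in 5 of 8 of numbers 6 to 8 and all 6 of numbers 9 and 10. The blocks were not compared by a test. Of all genes, a large part differed between these groups: 24.1 percent of genes tested were lower, 26.7 percent were higher and 50.8 percent were called in either direction. Of the Hox members 53.6 percent were lower and 7.14 percent higher. The median log2 change of the 28 was -0.44, against 0.02 over all genes. The other 11 members, with few or no counts, were not tested. Without the 5 libraries high in muscle genes, which leaves 428 as the lone SCI Veh lesion and takes it to vary like the other groups, 0 members were called in either direction and the median was -0.36.

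By cluster, 7 of 8 tested Hoxb genes, 4 of 9 Hoxa, 2 of 6 Hoxc and 2 of 5 Hoxd genes were lower. Hoxb8 stood at 55.5, 42.2, 35.5 and 55.9 CPM in SCI Tam lesions, 40.2, 43.9, 27.7 and 43.7 in SCI Veh lesions and 94.9, 77.4, 74.2 and 78.5 in Uninjured cords. All lesions lay below all Uninjured cords, and SCI Veh averaged 38.9 ± 7.66 CPM, against 81.2 ± 9.29 CPM in Uninjured cords (SD, n = 4 each; log2 change -1.06 ± 0.17 (SE), adjusted p = 0.000202). Hoxb3, known for roles in the hindbrain and throat region, had 9.22, 5.01, 4.84 and 6.86 CPM in SCI Tam lesions, 5.76, 6.53, 4.40 and 7.59 in SCI Veh lesions and 13.4, 12.3, 12.1 and 15.1 in Uninjured cords. The SCI Veh and Uninjured values did not overlap (log2 change -1.12 ± 0.21 (SE), adjusted p = 0.000667). Its values may hold reads of Hoxb3os. Hoxb9, a gene of thoracic level, had 70.7, 65.2, 41.6 and 78.2 CPM in SCI Tam lesions, 46.2, 60.2, 39.6 and 55.6 in SCI Veh lesions and 93.1, 98.7, 91.3 and 76.5 in Uninjured cords, and here too SCI Veh lay wholly below (log2 change -0.84 ± 0.18 (SE), adjusted p = 0.00157). Hoxb2, a hindbrain gene in the embryo, was a low member with 1.20, 1.67, 2.42 and 1.92 CPM in SCI Tam lesions, 1.07, 1.97, 1.74 and 1.96 in SCI Veh lesions and 3.44, 3.00, 3.25 and 3.42 in Uninjured cords (log2 change -0.95 ± 0.23 (SE), adjusted p = 0.00432).

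Hoxb5, Hoxb6 and Hoxb7, the middle genes of the cluster, fell too. Hoxb5 had 31.7, 27.2, 22.5 and 36.7 CPM in SCI Tam lesions, 25.5, 27.00, 20.2 and 29.03 in SCI Veh lesions and 42.8, 39.3, 42.2 and 40.4 in Uninjured cords, and its SCI Veh change was -0.69 on the log2 scale (adjusted p = 0.00118). Hoxb6 had 46.6, 38.9, 29.6 and 51.6 CPM in SCI Tam lesions, 36.4, 38.5, 26.5 and 39.7 in SCI Veh lesions and 66.1, 51.01, 54.9 and 55.1 in Uninjured cords, a change of -0.69 (adjusted p = 0.0038). Hoxb7 had 24.5, 22.01, 17.2 and 30.2 CPM in SCI Tam lesions, 16.97, 22.3, 15.7 and 19.9 in SCI Veh lesions and 30.3, 24.8, 23.9 and 29.4 in Uninjured cords, a change of -0.53 (adjusted p = 0.015). In each of these 3 genes the SCI Veh lesions lay below all Uninjured cords. Hoxb4, a gene also known from blood stem cells, was at -0.31 and was not called (adjusted p = 0.0583). The Hoxb cluster held 32.6 to 43.7 percent of the summed Hox FPKM in SCI Tam lesions and 32.7 to 38.3 percent in SCI Veh lesions, against 43.6 to 47.9 percent in Uninjured cords.

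**Figure D4:**
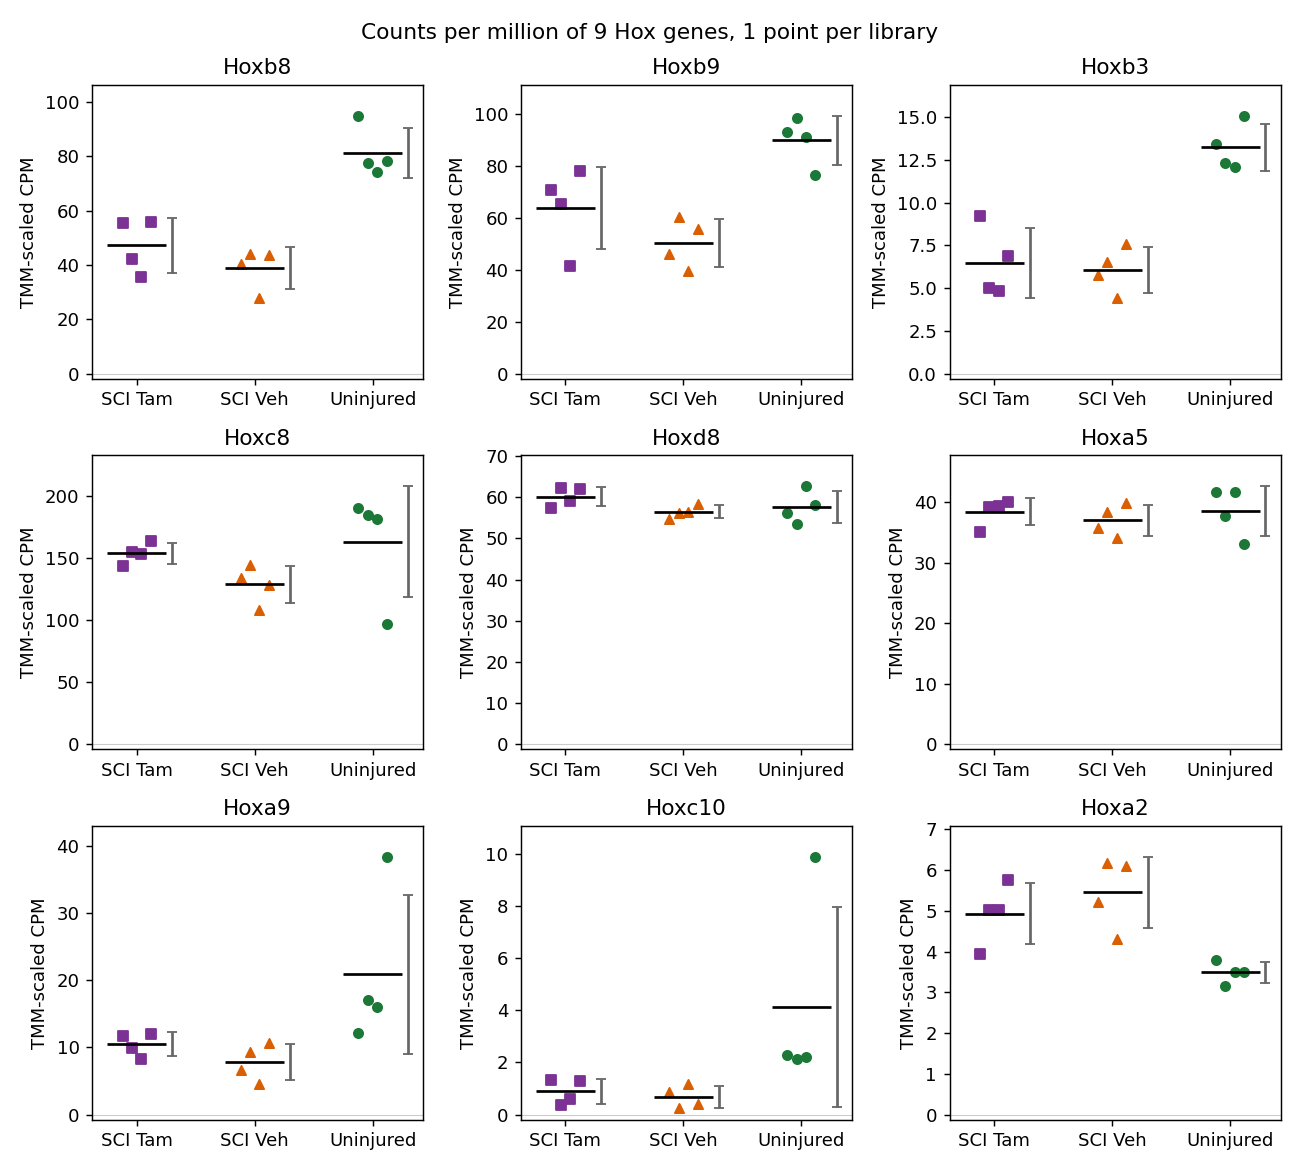
TMM-scaled CPM (y axis, from 0) of 9 Hox genes in SCI Tam, SCI Veh and Uninjured libraries (x axis), 1 point per library, with the mean as a black line and the SD as a grey bar. Hoxb8 is at 35.5 to 55.9 CPM in SCI Tam, 27.7 to 43.9 in SCI Veh and 74.2 to 94.9 in Uninjured, Hoxd8 and Hoxa5 overlap in all groups, and 1 Uninjured library (467) sets the spread of Hoxc8, Hoxa9 and Hoxc10.

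Genes of numbers 9 and 10 pattern the thoracic and lumbar levels, and besides Hoxb9 the other 5 tested ones fell as well. Hoxc10 had 1.32, 0.371, 0.605 and 1.28 CPM in SCI Tam lesions, 0.854, 0.247, 1.19 and 0.391 in SCI Veh lesions and 2.29, 2.14, 2.19 and 9.91 in Uninjured cords (log2 change -2.59 ± 0.64 (SE), adjusted p = 0.00428). Its lesion counts were few, from 2 to 14 reads a library. Hoxa9, best known for its role in blood and leukaemia, had 11.7, 9.94, 8.21 and 11.99 CPM in SCI Tam lesions, 6.62, 9.37, 4.58 and 10.7 in SCI Veh lesions and 12.2, 17.1, 15.97 and 38.4 in Uninjured cords (log2 change -1.42 ± 0.34 (SE), adjusted p = 0.00396). Hoxa10 had 0.957, 2.51, 1.04 and 1.46 CPM in SCI Tam lesions, 1.17, 0.863, 0.458 and 1.10 in SCI Veh lesions and 1.83, 2.48, 1.75 and 3.68 in Uninjured cords (log2 change -1.44 ± 0.38 (SE), adjusted p = 0.00712). These are the 3 genes that were high in library 467, and without it their changes were -1.69, -0.95 and -1.17 on the log2 scale, with adjusted p of 0.0131, 0.00868 and 0.03. For all 3 the lesions of both groups lay below the lowest Uninjured cord with 467 left out, except SCI Tam library 513 in Hoxa10. Hoxc9, which in the embryo sets the thoracic motor columns, had 15.2, 9.19, 11.7 and 19.3 CPM in SCI Tam lesions, 13.1, 13.3, 8.25 and 12.6 in SCI Veh lesions and 20.5, 18.2, 18.95 and 22.3 in Uninjured cords (log2 change -0.76 ± 0.21 (SE), adjusted p = 0.00802). Hoxd9 had 3.35, 5.57, 4.06 and 3.75 CPM in SCI Tam lesions, 5.23, 5.05, 4.40 and 5.01 in SCI Veh lesions and 7.91, 8.90, 6.67 and 7.36 in Uninjured cords (log2 change -0.65 ± 0.16 (SE), adjusted p = 0.00462). In both genes SCI Veh lay wholly below the Uninjured cords.

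Outside these sets, 2 members of the Hoxa cluster fell. Hoxa6 had 22.9, 17.5, 19.4 and 21.8 CPM in SCI Tam lesions, 15.05, 21.3, 16.96 and 20.03 in SCI Veh lesions and 26.5, 29.7, 32.7 and 30.4 in Uninjured cords (log2 change -0.70 ± 0.12 (SE), adjusted p = 0.000354). Hoxa7 had 49.1, 50.9, 48.4 and 61.1 CPM in SCI Tam lesions, 44.4, 50.5, 40.4 and 48.8 in SCI Veh lesions and 63.5, 55.9, 60.4 and 55.6 in Uninjured cords (log2 change -0.35 ± 0.09 (SE), adjusted p = 0.00617). The Hoxa7 call was lost with limma on log2(FPKM + 0.1) and log2(FPKM + 1), at -0.23 and -0.22 (adjusted p = 0.0977 and 0.0987). Hoxd1, which in the mouse acts in sensory neurons, had 1.56, 2.04, 2.07 and 2.10 CPM in SCI Tam lesions, 0.640, 1.73, 0.642 and 2.19 in SCI Veh lesions and 2.98, 2.23, 3.16 and 2.10 in Uninjured cords. Its SCI Veh values split into 0.640 and 0.642 CPM in 402 and 429 and 1.73 and 2.19 CPM in 428 and 457, overlapping the Uninjured cords (log2 change -0.98 ± 0.35 (SE), adjusted p = 0.0314). The Hoxd1 call was lost with the sex term (-1.12, adjusted p = 0.0543), with the muscle term (-0.97, adjusted p = 0.0627) and without 376, 385, 402 or 429 (-0.92 to -0.77, adjusted p = 0.0739 to 0.0897).

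For several other members the SCI Veh change was close to 0. Hoxd8 had 57.4, 62.2, 59.02 and 61.9 CPM in SCI Tam lesions, 54.7, 56.2, 56.5 and 58.5 in SCI Veh lesions and 56.2, 53.4, 62.7 and 58.1 in Uninjured cords. It averaged 56.5 ± 1.53 CPM in SCI Veh lesions and 57.6 ± 3.89 CPM in Uninjured cords (SD, n = 4 each), with a 95 percent interval of the log2 change from -0.16 to 0.10. Hoxa5 had 35.2, 39.2, 39.5 and 40.1 CPM in SCI Tam lesions, 35.7, 38.5, 34.2 and 39.9 in SCI Veh lesions and 41.7, 37.7, 41.7 and 33.1 in Uninjured cords, an interval of -0.24 to 0.13. Hoxa4 and Hoxc4 had log2 changes of 0.00 and -0.05 with intervals of -0.27 to 0.26 and -0.27 to 0.16. Hoxa3 and Hoxd4 were at 0.05 and 0.09, with intervals of -0.20 to 0.30 and -0.51 to 0.68. These intervals leave out a fall as large as that of Hoxb8. Hoxc8 and Hoxc6 are the main Hoxc genes of forelimb level. Hoxc8 had 144, 155, 153 and 164 CPM in SCI Tam lesions, 134, 145, 109 and 129 in SCI Veh lesions and 190.4, 185, 182 and 96.9 in Uninjured cords. Hoxc6 had 29.9, 34.4, 33.1 and 33.2 CPM in SCI Tam lesions, 29.5, 32.5, 25.8 and 36.7 in SCI Veh lesions and 40.2, 41.7, 44.3 and 27.3 in Uninjured cords. In SCI Veh their log2 changes were -0.34 and -0.30 and they were not called (adjusted p = 0.114 and 0.0953). Both results turn on library 467: without it they were lower, at -0.53 and -0.44 log2 (adjusted p = 0.000516 and 0.00617). In that fit 17 members were lower in all, the 15 named among them, beside 21.6 percent of all genes.

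Hoxa2 and Hoxc5 were the members that rose. Hoxa2, which directs the hindbrain and the second branchial arch in the embryo, had 3.95, 5.01, 5.01 and 5.76 CPM in SCI Tam lesions, 5.23, 6.16, 4.31 and 6.10 in SCI Veh lesions and 3.78, 3.17, 3.51 and 3.51 in Uninjured cords, with all lesions above all Uninjured cords (log2 change 0.64 ± 0.16 (SE), adjusted p = 0.00485). It shares words with Gm28308, so part of its reads may belong there. Hoxc5, a neck-level gene, had 8.86, 11.6, 9.42 and 9.06 CPM in SCI Tam lesions, 11.95, 11.96, 9.99 and 11.5 in SCI Veh lesions and 7.91, 8.99, 9.39 and 3.86 in Uninjured cords (log2 change 0.59 ± 0.22 (SE), adjusted p = 0.0366). Without 467, where it was lowest, the Hoxc5 change was 0.37 (adjusted p = 0.0347). Its call was lost without 376, 402, 428 or 457 (0.55 to 0.61, adjusted p = 0.0613 to 0.083), with limma on log2(FPKM + 1) (0.45, adjusted p = 0.0911) and with the muscle term (0.49, adjusted p = 0.092).

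**Figure D5:**
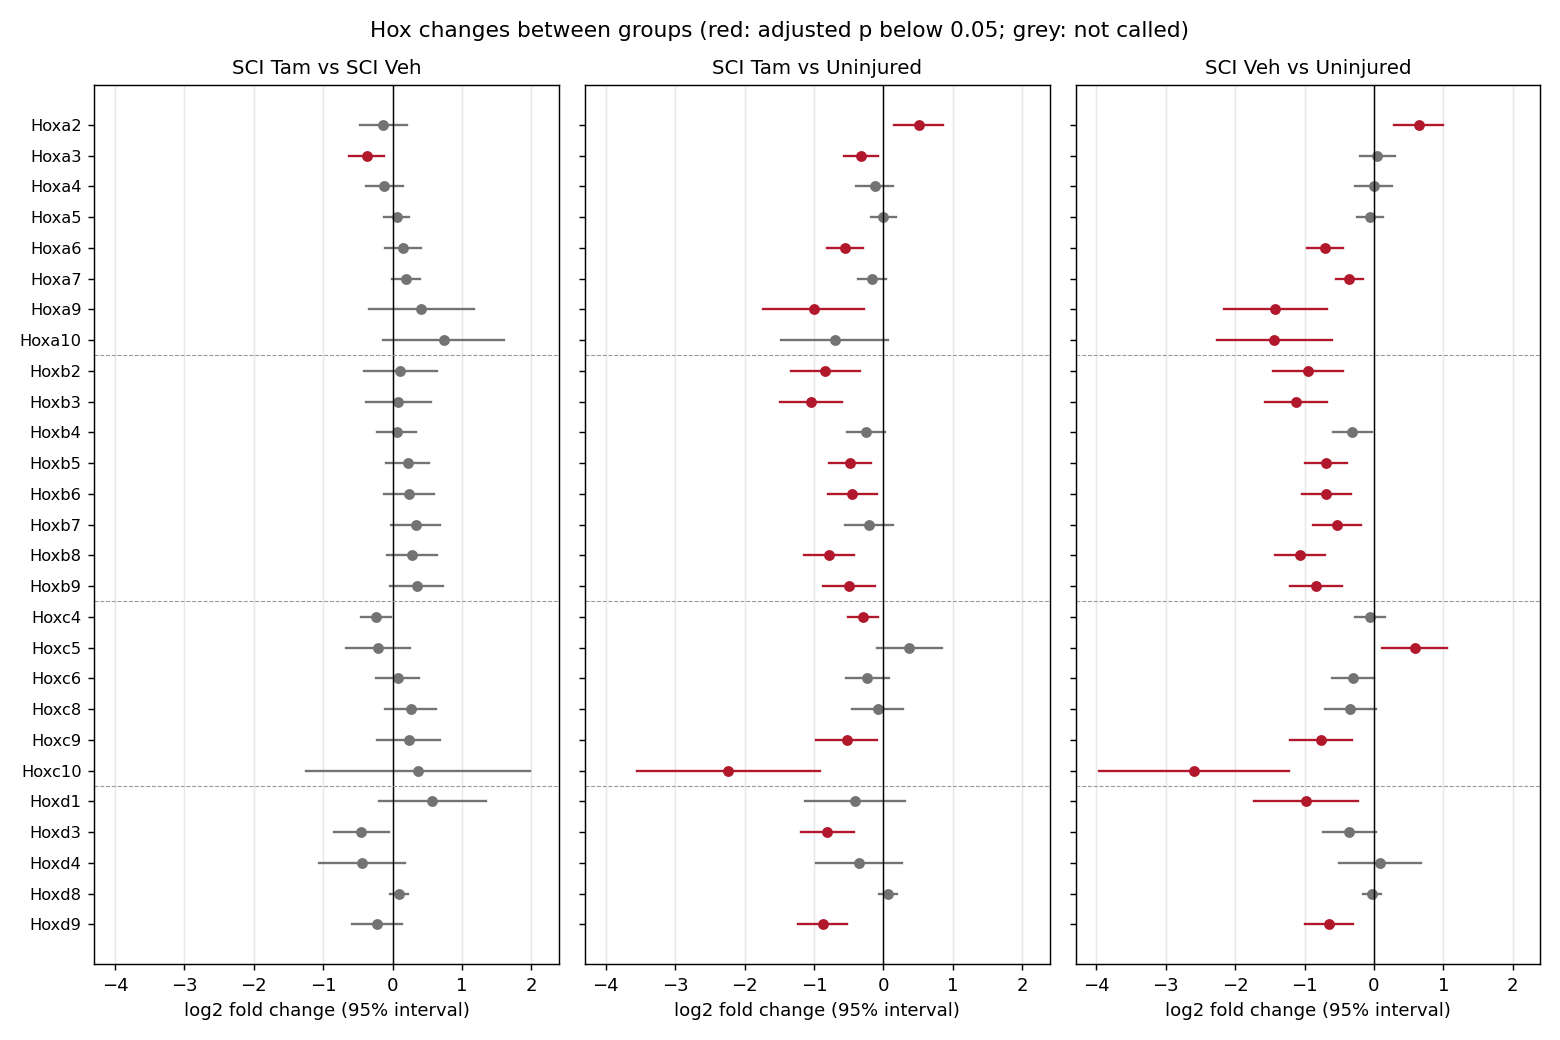
Log2 fold change (x axis, points, with 95 percent intervals as lines) of 27 of the 28 tested Hox genes (y axis, by cluster and number, clusters parted by dashed lines) in SCI Tam against SCI Veh (left), SCI Tam against Uninjured (middle) and SCI Veh against Uninjured (right); red marks an adjusted p below 0.05. Against Uninjured cords 15 members are lower in SCI Veh and 14 in SCI Tam, and 1 member, Hoxa3, differs between SCI Tam and SCI Veh.

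Marker genes of several cell types moved with the same contrast. Of 7 motor neuron genes tested, 2 were lower in SCI Veh lesions, 1 was higher and 4 were not called. That is 28.6 percent lower, beside 24.1 percent of all genes, with a median log2 change of -0.08. Astrocyte genes summed to 9772 to 12710 CPM in SCI Tam lesions and 8662 to 11026 CPM in SCI Veh lesions. In Uninjured cords they summed to 5473 to 6292 CPM. All 12 neuronal genes were lower in SCI Veh lesions, beside 24.1 percent of all genes, with a median log2 change of -0.87. These 12 summed to 5256 to 6269 CPM in SCI Tam lesions and 4666 to 5608 CPM in SCI Veh lesions, against 7354 to 7798 CPM in Uninjured cords. Macrophage genes summed to 548 to 1305 CPM in SCI Tam and 842 to 1765 CPM in SCI Veh lesions, against 116 to 150.4 CPM in Uninjured cords. Fibroblast genes summed to 560 to 1024 CPM in SCI Tam and 2800 to 7947 CPM in SCI Veh lesions, against 178 to 572 CPM in Uninjured cords. Skeletal muscle genes ran from 11.4 to 35.9 CPM in SCI Tam, 23.2 to 782 CPM in SCI Veh and 16.2 to 977 CPM in Uninjured libraries. Their part in the Hox values was not tested. Among the vehicle lesions, 429 was the lowest of its group in 21 of 28 members and in 7 of 8 Hoxb genes, and it also had the lowest neuronal sum. Without 429, 14 members were lower, beside 21.8 percent of all genes.

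Lesions of tamoxifen mice also differed from uninjured cord. In SCI Tam 14 of the 28 tested members were lower than in Uninjured cords, 1 was higher and 13 were not called, 50 percent lower beside 22.7 percent of all genes, and 3.57 percent higher beside 26.3 percent; 48.9 percent of all genes were called in either direction. The median log2 change was -0.38, against 0.01 over all genes. Both comparisons use the same Uninjured cords, so their overlap is not independent. Hoxb8 was at -0.78 (adjusted p = 0.00196), Hoxb3 at -1.04 (0.00137), Hoxd9 at -0.87 (0.000894), Hoxb2 at -0.84 (0.00941), Hoxa6 at -0.55 (0.0023) and Hoxc10 at -2.23 (0.00931). For each of these 6 genes the SCI Tam lesions lay below all Uninjured cords. That held for 11 of the 28 tested members in all, and in 2 members the SCI Tam lesions lay wholly above. The share of all genes with such a separation was not taken. Hoxa9 was at -1.004 (adjusted p = 0.0253), and without 467 at -0.54 (adjusted p = 0.0963). The calls of Hoxb6, Hoxc4 and Hoxc9 were also lost without 467 (adjusted p = 0.0594, 0.05003 and 0.106), with changes of -0.46, -0.29 and -0.48 log2 that were about as large as with it (-0.44, -0.29 and -0.53), while Hoxc6 and Hoxc8 became lower (adjusted p = 0.0169 and 0.0239), 12 members in all. Of all genes, 19.8 percent were lower in SCI Tam in the fit without 467. Hoxc10 without 467 was at -1.32 (adjusted p = 0.0371).

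Hoxd3, Hoxa3 and Hoxc4, members of lower number, were lower as well. Hoxd3 had 10.2, 8.73, 10.2 and 8.42 CPM in SCI Tam lesions, 9.92, 16.1, 10.7 and 14.5 in SCI Veh lesions and 11.7, 17.8, 19.3 and 16.6 in Uninjured cords (log2 change -0.80 ± 0.18 (SE), adjusted p = 0.00282), with SCI Tam below all Uninjured cords. Hoxd4 had 0.732 to 1.68 CPM in SCI Tam, 1.17 to 1.88 CPM in SCI Veh and 1.23 to 1.93 CPM in Uninjured libraries. It was called in no comparison. Its mean over all libraries was 4.66 FPKM, near the 5.14 FPKM of Hoxd3, though its CPM were far lower. The reason was not tested. Hoxa3, needed in the mouse for the thymus and parathyroid, had 9.34, 9.66, 8.81 and 7.59 CPM in SCI Tam lesions, 11.1, 11.6, 10.5 and 12.5 in SCI Veh lesions and 10.4, 12.4, 11.8 and 9.56 in Uninjured cords (log2 change -0.32 ± 0.12 (SE), adjusted p = 0.0357). Hoxc4 had 19.3, 21.6, 18.9 and 19.6 CPM in SCI Tam lesions, 23.9, 26.3, 18.98 and 24.5 in SCI Veh lesions and 22.1, 24.9, 25.9 and 24.1 in Uninjured cords (log2 change -0.29 ± 0.10 (SE), adjusted p = 0.0299). Hoxd3 shares much of its transcript with Hoxd4, and Hoxa3 overlaps antisense transcripts. Hoxb5, Hoxb6, Hoxb9 and Hoxc9 were lower as well, by -0.48, -0.44, -0.49 and -0.53 log2 (adjusted p = 0.0125, 0.039, 0.0329 and 0.047), with groups that overlapped in Hoxb6, Hoxb9 and Hoxc9, and Hoxa2 was higher, by 0.51 (adjusted p = 0.0198). Of 8 fits with 1 library left out, the calls of Hoxa3, Hoxc4, Hoxb6, Hoxb9 and Hoxc9 were lost in 4, 5, 5, 5 and 6. Those of Hoxa2, Hoxd3 and Hoxb5 were lost in 2, 0 and 0. Hoxd8, Hoxa5 and Hoxc8 had intervals of -0.06 to 0.19, -0.18 to 0.19 and -0.45 to 0.29.

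These counts moved with the setting. Of the SCI Tam libraries only 452 has a sample name of 20 or lower, as the Uninjured ones have, and with a term for that series 2 members remained lower, Hoxb2 and Hoxd9, and Hoxa2 was no longer called. Without 549, the lowest SCI Tam library in 7 of 8 Hoxb genes, 8 members were lower, and without Uninjured library 385 there were 9. Fewer genes were called overall in these fits: 4.29 percent of all genes were lower with the series term, 18.4 percent without 549 and 18.9 percent without 385. The median log2 change of the members was -0.34 with the series term, -0.31 without 549 and -0.30 without 385, against -0.38.

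Between the 2 kinds of lesion, nearly all Hox genes were uncalled. In SCI Tam against SCI Veh 1 of 28 members was lower (3.57 percent, beside 8.33 percent of all genes; 7.79 percent of genes were higher and 16.1 percent either), and 0 were higher by edgeR's quasi-likelihood test, 0 by DESeq2 and 0 by limma on log2 FPKM. At an unadjusted p below 0.05, 0 were higher and 3 lower, Hoxa3, Hoxc4 and Hoxd3. The share of all genes at that looser threshold was not taken, so these 3 have no background to be read against. The member that was lower was Hoxa3, whose 4 SCI Tam values, 7.59 to 9.66 CPM, lay below its SCI Veh values, 10.5 to 12.5 CPM (log2 change -0.37 ± 0.12 (SE), adjusted p = 0.0474). That call was lost at changes of -0.38 with DESeq2 (adjusted p = 0.0537), -0.29 with the series term (0.518) and -0.31 with limma on log2(FPKM + 1) (0.256). It was also lost, at -0.41 to -0.30, without any 1 of the 4 SCI Veh libraries or of SCI Tam libraries 513, 549 and 564 (0.0562 to 0.135), and it was kept without 452. Hoxd3 and Hoxc4 were at -0.45 and -0.23 log2 and not called (adjusted p = 0.106 and 0.124).

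The estimates of the Hoxb genes were all above 0, from 0.06 to 0.35 log2, as were those of all 8 members of numbers 6 to 8, from 0.07 to 0.33, and none was called. The intervals give the room left for a difference: -0.08 to 0.64 for Hoxb8, -0.04 to 0.73 for Hoxb9, -0.02 to 0.68 for Hoxb7, -0.11 to 0.63 for Hoxc8 and -0.03 to 0.22 for Hoxd8. For low members they were wide, -1.25 to 1.98 for Hoxc10 and -0.13 to 1.61 for Hoxa10. Without library 549, Hoxb9 was higher in SCI Tam by 0.51 log2 (adjusted p = 0.0303). With a term for sex Hoxa9 was higher by 1.36 (adjusted p = 0.0137); without 467, the only male Uninjured library (a fit chosen after seeing the data), it was at 1.19 with that term and not called (adjusted p = 0.0978), while Hoxc8 was then higher by 0.51 (adjusted p = 0.0421). All 4 SCI Tam mice were female and 3 of the 4 SCI Veh mice male. Of the 12 neuronal genes, 2 were higher in SCI Tam than in SCI Veh, 16.7 percent beside 7.79 percent of all genes. The part of neurons in the Hoxb estimates was not tested.

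Genes that work with Hox proteins or regulate the clusters were read beside the members. Hox proteins bind DNA with partners of the Pbx, Meis and Pknox families. Of 9 such partner genes, 4 were lower in SCI Veh lesions than in Uninjured cords and 5 were not called, 44.4 percent lower beside 24.1 percent of all genes. Meis2 averaged 37.8 ± 1.81 CPM in SCI Veh and 60.3 ± 7.47 CPM in Uninjured (log2 change -0.67, adjusted p = 0.00179). Pknox2, Pbx3 and Meis1 were at -0.55, -0.37 and -0.30 (adjusted p = 0.00375, 0.00598 and 0.00236). The same number, 4 of 9, were lower in SCI Tam against Uninjured, beside 22.7 percent of all genes.

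Polycomb proteins keep Hox genes silent where they are not used. Of 18 Polycomb genes 5 were higher and 3 lower in SCI Veh lesions, 27.8 and 16.7 percent, beside 26.7 and 24.1 percent of all genes. Ezh2, the enzyme that writes the repressive mark, had 10.9 ± 3.18 CPM in SCI Tam, 11.7 ± 1.96 CPM in SCI Veh and 5.47 ± 0.988 CPM in Uninjured libraries, a log2 change of 1.09 in SCI Veh (adjusted p = 0.000916) and 1.00 in SCI Tam (adjusted p = 0.00201). Ezh2 is also known as a gene of dividing cells. Phc2 was higher by 0.30 in SCI Veh, and the chromobox genes Cbx6 and Cbx7 were at -0.40 and -0.51 (adjusted p = 0.000435, 0.00158 and 0.00203).

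Trithorax-type proteins keep Hox genes active. Of 10 such genes 4 were lower and 1 higher in SCI Veh lesions, beside 24.1 percent of all genes lower and 26.7 percent higher. Men1, Dpy30 and Rbbp5 were at -0.35, -0.28 and -0.26 log2, and Wdr5 at 0.24 (adjusted p = 0.00149, 0.00843, 0.0104 and 0.0249). In SCI Tam against SCI Veh 1 was higher, Dpy30, by 0.28 (adjusted p = 0.0309), and 2 were lower, Kmt2b at -0.40 and Kdm6b at -0.38 (adjusted p = 0.0192 and 0.0132; both named after their values were seen). Of all genes, 7.79 percent were higher and 8.33 percent lower in SCI Tam against SCI Veh. In SCI Tam against Uninjured 5 were lower and 0 higher, beside 22.7 percent of all genes lower and 26.3 percent higher.

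Signals that set the Hox pattern in the embryo include retinoic acid, Gdf11 and the Cdx factors. Of 12 genes of this kind 7 were tested, and 3 were higher in SCI Veh lesions and 0 lower, beside 26.7 percent of all genes higher. In SCI Tam 2 were higher and 2 lower than in Uninjured, 28.6 percent each, beside 26.3 and 22.7 percent of all genes. Against SCI Veh 3 were lower, 42.9 percent, beside 8.33 percent of all genes. The retinoic acid receptor gene Rarg had 17.96 ± 1.94 CPM in SCI Tam, 28.3 ± 4.39 CPM in SCI Veh and 12.9 ± 2.82 CPM in Uninjured libraries. It was higher in SCI Veh than in Uninjured by 1.14 log2 (adjusted p = 7.86e-05), higher in SCI Tam than in Uninjured by 0.49 (adjusted p = 0.0219), and in SCI Tam against SCI Veh it was at -0.65 (adjusted p = 0.0154). Rarb and Gdf11 were higher in SCI Veh by 0.42 and 0.35 (adjusted p = 0.00485 and 0.00599). Cyp26b1, which breaks down retinoic acid, was at 0.67 in SCI Veh and not called (adjusted p = 0.0587). Cdx1 and Cdx2 had no count in any library.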

How the data were processed

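RNA of 12 spinal cord pieces was sequenced. The authors deposited raw read counts per gene for 37991 Ensembl genes and, in a second table, FPKM values, and the submitters' processing notes name HTSeq, Cufflinks, Picard, TopHat and the build mm9. Whether counting used strand is not stated in these sources. The members were joined between tables by Ensembl identifier, 39 of 39. Some items, 1 member among them, are counted in totals and not reported here by name. The members and gene lists were chosen with earlier results of these data known. Any member could be named; members called in a comparison with a mean of at least 1 CPM, and the highest of each paralogue number, were given in every library, and up to 4 genes with the smallest p of each list of partners and regulators.

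Counts were tested with edgeR 4.0.16 (R 4.3.3): filterByExpr (minimum count 10, minimum total 15) left 16473 genes, of them 28 members, with TMM scaling and 1 quasi-likelihood fit of 3 group means with 9 residual degrees of freedom, two-sided, Benjamini-Hochberg adjusted over all genes at 0.05. The fit was first tested on simulated data. CPM are TMM-scaled; deposited FPKM served for levels between genes, shares and an alternative with limma 3.58.1. DESeq2 1.42.0 was another alternative. The labels do not say more of the replicates than that each is 1 mouse. As a measure of muscle in a piece, log2 CPM was averaged over 13 skeletal muscle genes. Libraries hold 7967970 to 12581324 counts without molecular identifiers, so floors cover counting error only. Motifs and 31-base words were read from GRCm38 sequence, a later build than mm9, and no deposited position was used.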

Additional observations from a re-analysis of the deposited data

Results flagged for a closer look

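In 87 sets of 4 libraries (a tested member, or the weighted mean paralogue number, in 1 group), the highest or lowest library was compared with the other 3, and 5 stood far from them by Dixon's 95 percent limit for the gap over the range. Chance flags about 1 in 20 sets. In Uninjured cords Hoxc10 was highest in library 467 at 9.91 CPM, where the other 3 had 2.14 to 2.29 CPM, and Hoxc8 was lowest there at 96.9 CPM, where the others had 182 to 190.4 CPM. Both fall in the library that also differed in Hoxa9, Hoxa10, Hoxc5 and Hoxc6. Hoxa4 was highest in Uninjured library 376 at 11.005 CPM, where the others had 9.56 to 9.65 CPM. Hoxc9 was lowest in SCI Veh library 429 at 8.25 CPM, where the others had 12.6 to 13.3 CPM. Hoxd1 was lowest in SCI Tam library 452 at 1.56 CPM, where the others had 2.04 to 2.10 CPM.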

How the results depend on the processing

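No call of a member changed its direction in any alternative, and 68 values of uncalled members changed sign. For SCI Veh against Uninjured, the members lower numbered 14 to 17 with each library left out and 14 to 16 in the other alternatives, apart from leaving out the 5 libraries high in muscle genes, which leaves 1 vehicle library (428) and gave 0 lower and 0 higher, with 0.103 percent of all genes lower; the members' median was then -0.36. Of all genes, 21.2 to 23.9 percent were lower with each library left out. The 2 higher members became 1 with no filter, with a muscle term, with limma at both pseudocounts (0.1 and 1) and in a fit of the 8 libraries alone. They became 1 to 2 with each library left out, and Hoxc5 was the call lost in each case. For SCI Tam against SCI Veh, 0 were lower with no filter, the series, sex or muscle term, with DESeq2's Wald test, with limma and with the 8 libraries alone. Of all genes, 0.243 percent were lower with the series term, 0.334 percent with the muscle term and 3.56 percent with the sex term. DESeq2 gave 10.3 percent, and the main fit 8.33 percent. With the sex term 1 member was higher (Hoxa9). Without the muscle-high libraries, which leaves 1 vehicle library, the members' median log2 change was 0.03, against 0.10. Each library left out gave 0 to 1 in either direction. For SCI Tam against Uninjured, the series term gave 2 lower and 0 higher, the muscle term 9 lower, and leaving out the muscle-high libraries 5 lower and 0 higher. In these fits 4.29, 20.3 and 9.85 percent of all genes were lower, against 22.7 percent in the main fit. The members' median log2 change was -0.34, -0.37 and -0.38, against -0.38. Each library left out gave 8 to 14 lower and 0 to 1 higher, beside 18.2 to 24.8 percent of all genes lower. A sex term with 467 left out, chosen after seeing the data, gave 0 higher in SCI Veh against Uninjured and 1 higher (Hoxc8) and 0 lower in SCI Tam against SCI Veh. The weighted mean paralogue number differed by -0.208 in SCI Veh against Uninjured (-0.139 with log2 weights, -0.225 to -0.193 with a library left out). In SCI Tam against SCI Veh it differed by 0.143 (0.0780 with log2 weights, 0.112 to 0.167 with a library left out). In SCI Tam against Uninjured it differed by -0.0647 (-0.0336 with CPM weights, -0.126 without numbers 1 to 3). There, a library left out gave -0.0956 to -0.0406. The causes were not tested. No paired analysis was possible because the groups share no replicate numbers. At this depth a member under 0.235 to 0.370 CPM cannot be told from absent in 1 library.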
